A study of Mus musculus with 12 samples.

Results

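Genes of the killing machinery of T cells and natural killer (NK) cells were followed in whole mouse bone marrow lacking Fancc, Fancg or both. The set held 10 genes: Gzma, Gzmb, Prf1, Nkg7, Klrd1, Cd2, Cd3e, Il2rb, Ccl5 and Cd3g. They were found on the array by their gene symbol, on 12 probe sets, among 18193 genes with a probe set of a single symbol. All 10 passed the filter on low signal, which 11908 genes passed. Marrow was flushed from tibia and femur, was neither sorted nor cultured, and by the labels each marrow sample gave RNA for 1 Affymetrix array. The groups were Fancc-/-, Fancg-/-, double-knockout (Double Fancc-/-//Fancg-/-) and wild-type C57Bl/6 mice, with 3 arrays each. The labels give no strain for the knockouts, and no age, sex or litter for any mouse. The question of the design is how loss of either gene, or of both, changes the RNA of unfractionated marrow.

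Fancc and Fancg code for parts of the Fanconi anemia core complex, which serves the repair of DNA crosslinks. Cytotoxic T cells and NK cells kill by releasing granules onto a target cell: perforin opens its membrane and granzymes, which are proteases, start its death. T cells recognise their targets through the T cell receptor with its CD3 chains, NK cells through receptors such as CD94, and both respond to interleukin 2 and interleukin 15. Both kinds of cell are a minority of mouse marrow, beside the neutrophil, erythroid and B cell lineages.

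In mouse cytotoxic cells, T-box factors (T-bet and Eomes) and Runx3 are known regulators of granzyme and perforin genes, so the start regions of the 3 granule killers are shown with the short motifs of these families. The windows come from RefSeq (build GRCm38.p6), which held 6 of the 10 members, and run from 250 bases before a start site to 50 after it. For Gzma and Gzmb this site is the start of the gene record, whereas for Prf1 it lies 85 bases inside it, so that 1 of the marked Prf1 motifs, the T-box core, lies within the annotated gene. Capitals mark the T-box core AGGTGT and the Runx site TGTGGT, or their reverse complements ACACCT and ACCACA. No marked motif overlapped another.
Gzma window, chr13:113100932-113101231, minus strand: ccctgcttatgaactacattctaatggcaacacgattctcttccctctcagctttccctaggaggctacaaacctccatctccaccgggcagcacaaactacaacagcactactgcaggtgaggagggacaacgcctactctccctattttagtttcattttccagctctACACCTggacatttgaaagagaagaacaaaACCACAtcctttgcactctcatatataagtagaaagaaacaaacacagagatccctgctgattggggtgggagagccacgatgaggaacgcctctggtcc
Gzmb window, chr14:56262285-56262584, minus strand: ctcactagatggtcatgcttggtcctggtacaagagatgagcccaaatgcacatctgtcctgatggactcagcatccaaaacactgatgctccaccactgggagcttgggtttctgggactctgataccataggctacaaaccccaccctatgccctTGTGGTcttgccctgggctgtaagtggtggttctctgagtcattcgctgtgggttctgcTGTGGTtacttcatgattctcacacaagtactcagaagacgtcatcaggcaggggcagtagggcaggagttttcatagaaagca
Prf1 window, chr10:61297586-61297885, plus strand: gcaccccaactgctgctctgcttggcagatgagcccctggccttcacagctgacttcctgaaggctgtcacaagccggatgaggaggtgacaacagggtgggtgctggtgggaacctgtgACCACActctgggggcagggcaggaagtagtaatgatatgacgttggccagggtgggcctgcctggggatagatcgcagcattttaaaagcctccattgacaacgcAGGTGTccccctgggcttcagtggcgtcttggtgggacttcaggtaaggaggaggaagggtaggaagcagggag
The Gzma and Prf1 windows each held 1 T-box core and 1 Runx site, and the Gzmb window held 0 T-box cores and 2 Runx sites. Among the 6 members with a window, 5 held the T-box core (Gzma, Prf1, Nkg7, Cd3e and Cd3g) and 4 the Runx site (Gzma, Gzmb, Prf1 and Nkg7). Of all 32851 RefSeq windows of 300 bases, 13.7% held the T-box core and 16.8% the Runx site. A match of letters does not show that a factor binds there.

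Values are log2 signals made by the authors with RMA, so a difference of 1 is a doubling, and levels are not compared between genes because probe sets differ in brightness. The array medians lay between 4.79 and 4.87. Fancc-/- replicate 3 stood apart, with correlations of 0.945 to 0.967 with the other arrays, against 0.957 to 0.993 for all other pairs. Double-knockout replicate 1 correlated more closely with Fancg-/- replicates 1 and 2 (0.989 and 0.988) than with the other double-knockout arrays (both 0.973). Likewise, Fancg-/- replicate 3 correlated more closely with wild-type replicate 1 (0.989) than with Fancg-/- replicates 1 and 2 (0.986 and 0.985). Fancg-/- replicate 3 was made from 0.91 µg of RNA and the other arrays from 2 µg. Fancg, the deleted gene, read 5.92 to 6.67 on its 2 probe sets in Fancg-/- marrow and 5.41 to 5.83 in double-knockout marrow, against 6.80 to 6.92 in wild-type marrow. Fancg was also below wild type on every Fancc-/- array. On 1 probe set Fancc-/- marrow (6.43 to 6.72) overlapped Fancg-/- replicates 1 (6.55) and 3 (6.64). On the other, Fancc-/- marrow (6.68 to 6.78) was above every Fancg-/- array (5.92 to 6.67), but only narrowly above replicate 3 (6.67). These readings therefore check the Fancg-/- label weakly. Fancc was not below wild type in Fancc-/- marrow on any of its 3 probe sets. On one of them every Fancc-/- array (5.69 to 5.87) was above every wild-type array (5.25 to 5.35), and on the other 2 the groups overlapped. The sources used here do not say where these probes lie relative to the deleted parts, so Fancc does not check the labels. Xist, expressed in female cells, read 11.2 to 12.1 in Fancc-/- and 5.99 to 7.39 in double-knockout marrow, against 11.3 to 12.2 in wild-type marrow. The Y-linked Eif2s3y was at or below 3.30 in Fancc-/-, between 8.81 and 9.35 in double-knockout and at or below 3.20 in wild-type marrow. Between double-knockout marrow and both wild-type and Fancc-/- marrow, these marks of sex differed along with genotype. In those comparisons sex and genotype cannot be told apart. The Fancg-/- arrays were mixed, with Xist at 11.31, 7.34 and 10.75 and Eif2s3y at 7.64, 9.09 and 5.78, so that replicates 1 and 3 carried both marks. Marrow of 1 male or 1 female mouse would carry 1 of these marks, and whether these RNAs were mixed was not tested, which limits every value of the group labelled Fancg-/-.

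Among the granule proteins, Gzma and Prf1 lay below wild type on every array of both single knockouts, and Gzmb overlapped it. Gzma encodes granzyme A, a tryptase of cytotoxic granules. Its signal was 4.91, 5.24 and 4.94 on the Fancc-/- arrays, 5.97, 5.76 and 5.76 on the Fancg-/- arrays, 8.25, 6.22 and 5.95 on the double-knockout arrays, and 6.93, 7.21 and 6.79 on the wild-type arrays. All Fancc-/- arrays lay below all Fancg-/- arrays, and these below all wild-type arrays. The double knockout was split, with replicate 1 above every wild-type array and replicates 2 and 3 below all of them. Gzmb encodes granzyme B, the granzyme that activates caspases, and read 6.22, 6.37 and 6.82 on the Fancc-/- arrays, 6.75, 5.95 and 6.08 on the Fancg-/- arrays, 7.55, 6.66 and 7.59 on the double-knockout arrays, and 6.05, 6.67 and 6.57 on the wild-type arrays. Double-knockout replicates 1 and 3 were the highest of the 12 arrays, and the other groups overlapped.

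Prf1 encodes perforin, the pore-forming protein. On its brighter probe set it read 5.21, 5.22 and 5.14 on the Fancc-/- arrays, 5.36, 5.43 and 5.15 on the Fancg-/- arrays, 5.71, 5.36 and 4.97 on the double-knockout arrays, and 5.79, 5.52 and 5.76 on the wild-type arrays. Both single knockouts lay below wild type on every array, and double-knockout replicate 1 lay within the wild-type range. The second Prf1 probe set was above the array median on 0 arrays and was not used for a test. Nkg7, a membrane protein of cytotoxic granules needed for their release, read 10.28, 10.47 and 8.95 on the Fancc-/- arrays, 10.60, 10.56 and 10.49 on the Fancg-/- arrays, 9.92, 10.19 and 9.87 on the double-knockout arrays, and 10.59, 10.48 and 10.47 on the wild-type arrays. The wild-type and Fancg-/- arrays were tightly grouped, the double-knockout arrays were below both, and Fancc-/- replicate 3 was the lowest array. Fancc-/- replicate 2 was below the lowest wild-type array by less than the second decimal.

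**Figure D1:**
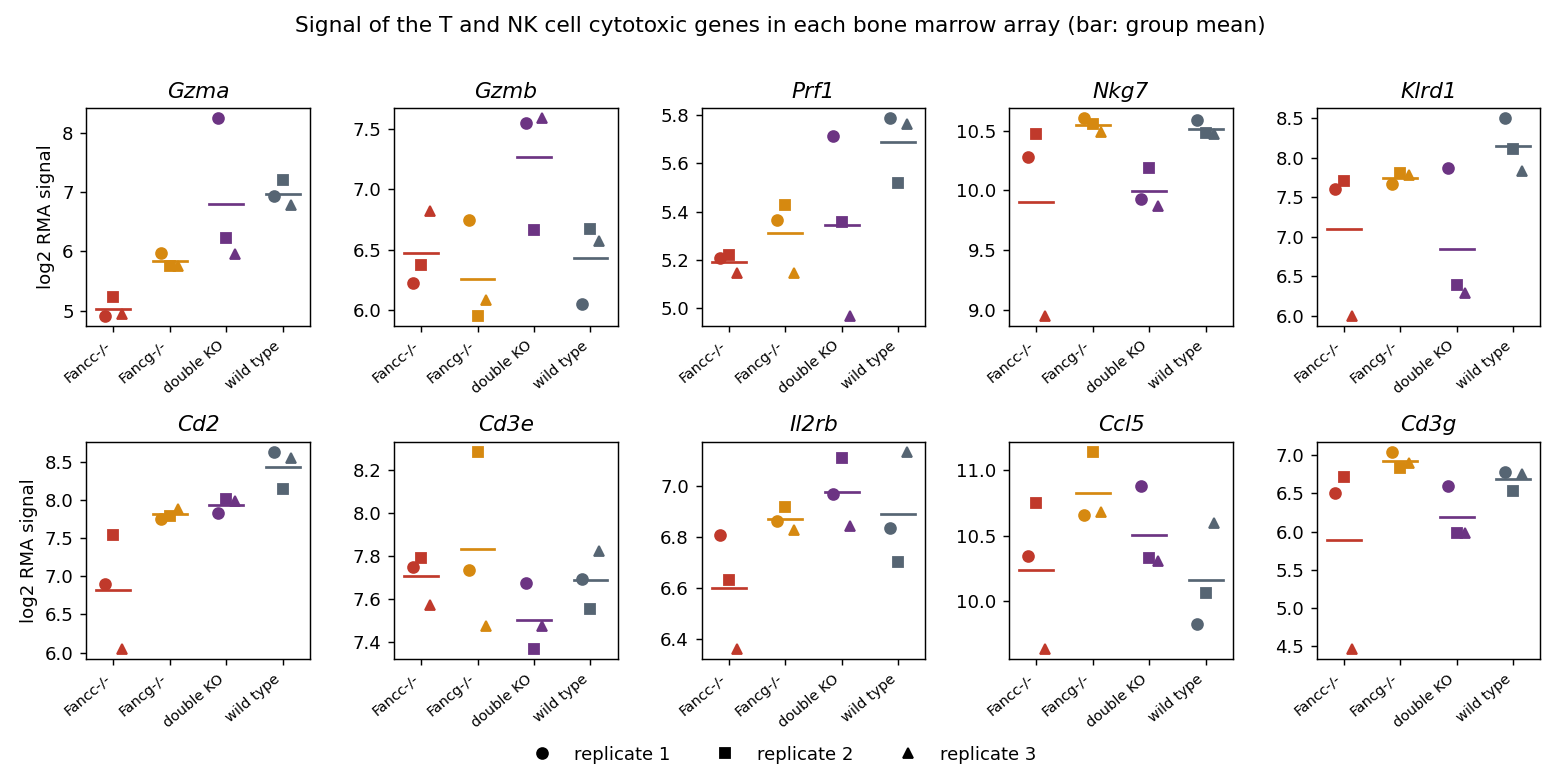
Log2 RMA signal (vertical axes, which differ between panels and do not start at 0) of the 10 genes on the 12 arrays; symbols mark the replicate and bars the mean of 3 arrays. Gzma lies between 4.91 and 5.24 on the Fancc-/- arrays and between 6.79 and 7.21 on the wild-type arrays, and Fancc-/- replicate 3 (triangle) is the lowest array for Nkg7, Klrd1, Cd2, Il2rb, Ccl5 and Cd3g.

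Of the receptors, Klrd1 was lower than wild type on every Fancc-/- and Fancg-/- array, and Il2rb overlapped wild type in every knockout on the brighter of its 2 probe sets. Klrd1 encodes CD94, which pairs with NKG2 proteins on NK cells and some cytotoxic T cells. Its signal was 7.60, 7.70 and 6.00 on the Fancc-/- arrays, 7.66, 7.80 and 7.78 on the Fancg-/- arrays, 7.86, 6.39 and 6.29 on the double-knockout arrays, and 8.50, 8.11 and 7.83 on the wild-type arrays. The lowest values were those of Fancc-/- replicate 3 and double-knockout replicates 2 and 3, while double-knockout replicate 1 lay just inside the wild-type range. Il2rb encodes the beta chain shared by the receptors for interleukin 2 and interleukin 15. On that probe set it read 6.81, 6.63 and 6.36 on the Fancc-/- arrays, 6.86, 6.92 and 6.83 on the Fancg-/- arrays, 6.97, 7.11 and 6.85 on the double-knockout arrays, and 6.84, 6.70 and 7.14 on the wild-type arrays. Its second probe set averaged 6.51 ± 0.37 in Fancc-/-, 6.66 ± 0.10 in Fancg-/-, 6.91 ± 0.10 in double-knockout and 6.78 ± 0.04 in wild-type marrow (SD, n = 3 each). There every double-knockout array (6.83 to 7.02) was above every wild-type array (6.73 to 6.82), by a margin smaller than the spread within either group, and the single knockouts overlapped wild type.

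The T cell surface genes did not move as a block. Cd2, an adhesion receptor of T and NK cells that mouse B cells also carry, read 6.90, 7.54 and 6.04 on the Fancc-/- arrays, 7.75, 7.79 and 7.88 on the Fancg-/- arrays, 7.82, 8.00 and 7.99 on the double-knockout arrays, and 8.63, 8.13 and 8.54 on the wild-type arrays. Every knockout array was below every wild-type array, and all Fancc-/- arrays were below those of the other knockouts. Cd3e, the epsilon chain of the CD3 complex, averaged 7.70 ± 0.12 in Fancc-/-, 7.83 ± 0.41 in Fancg-/-, 7.51 ± 0.16 in double-knockout and 7.69 ± 0.14 in wild-type marrow (SD, n = 3 each). Its 12 values ran from 7.37 on double-knockout replicate 2 to 8.28 on Fancg-/- replicate 2, and each knockout overlapped wild type. Cd3g, the gamma chain, read 6.51, 6.72 and 4.46 on the Fancc-/- arrays, 7.05, 6.84 and 6.90 on the Fancg-/- arrays, 6.60, 5.99 and 5.98 on the double-knockout arrays, and 6.78, 6.53 and 6.76 on the wild-type arrays. Fancc-/- replicate 3 was far below all others for Cd3g, at a level under its array median, while its Cd3e signal of 7.57 was inside the wild-type range. Cd3d, the neighbouring gene for the delta chain, was also lowest on that array, at 7.27, against 8.35 to 8.41 in wild-type marrow.

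Ccl5, a chemokine that cytotoxic cells store and that platelets also hold, read 10.34, 10.75 and 9.63 on the Fancc-/- arrays, 10.65, 11.14 and 10.68 on the Fancg-/- arrays, 10.88, 10.33 and 10.31 on the double-knockout arrays, and 9.82, 10.06 and 10.60 on the wild-type arrays. All Fancg-/- arrays were above all wild-type arrays, by a margin of less than the wild-type spread, and the other knockouts overlapped wild type.

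Gzma and Cd2 fell in Fancc-/- marrow. In Fancc-/- marrow Gzma averaged 5.03 ± 0.18, against 6.98 ± 0.22 in wild-type marrow (SD, n = 3 each), a log2 change of -1.95 ± 0.44 (SE), or 3.86-fold lower (adjusted p = 0.0297, limma). Cd2 averaged 6.83 ± 0.75 in Fancc-/- and 8.43 ± 0.26 in wild-type marrow, a change of -1.61 ± 0.29, or 3.05-fold lower (adjusted p = 0.00897). On the same arrays 8 of 9 B cell markers fell, with a summed linear signal of 922 to 1858 in Fancc-/-, against 5842 to 8032 in wild-type marrow, and their part in the fall of Cd2 was not tested. With a gene called at an adjusted p below 0.05 over all 11908 genes, 2 of 10 members were called lower and 0 higher, while 2.36% of all genes tested were called lower and 2.18% higher. A further 3 members had every Fancc-/- array below every wild-type array without passing the test: Prf1 (-0.50 ± 0.16, adjusted p = 0.114), Nkg7 (-0.62 ± 0.30, adjusted p = 0.274) and Klrd1 (-1.05 ± 0.46, adjusted p = 0.236). With Gzma and Cd2, that made 5 of 10 members without overlap in the lower direction, against 13.1% of all genes tested. An unadjusted p below 0.05 was reached by 4 members, against 19.8% of all genes. Il2rb (-0.29 ± 0.15, adjusted p = 0.297) and Cd3g (-0.79 ± 0.45, adjusted p = 0.355) overlapped wild type, as did Gzmb, Cd3e and Ccl5. Gzmb averaged 6.47 ± 0.31 in Fancc-/- and 6.43 ± 0.33 in wild-type marrow. The median change of the 10 members was -0.56, against -0.01 over all genes tested. In bulk marrow, fewer cells of a type and less RNA per cell cannot be told apart.

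Part of the Fancc-/- pattern rested on replicate 3. Without that array the changes of Nkg7 (-0.14), Klrd1 (-0.49) and Cd3g (-0.07) shrank and the members' median was -0.16, whereas Cd2 was still called (-1.22, adjusted p = 0.00506), in a fit that called 4.73% of all genes. Gzma kept its size without it (-1.90) but was at an adjusted p of 0.0555. The Gzma call was also lost without Fancc-/- replicate 1 (adjusted p = 0.0757) or without wild-type replicate 1, 2 or 3 (adjusted p = 0.0734, 0.116 and 0.0852), with changes of -1.83 to -2.04 in these settings. The Cd2 call was lost only when the other 6 arrays were dropped from the fit (adjusted p = 0.0681).

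**Figure D2:**
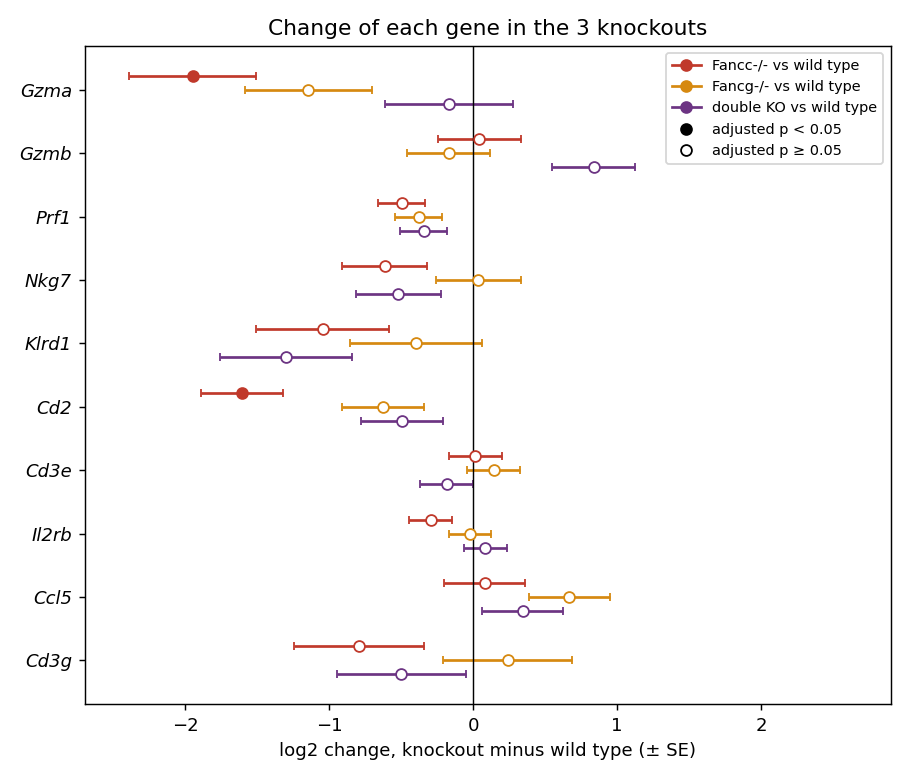
Log2 change against wild type (horizontal axis) of each of the 10 genes in the 3 knockouts, as limma's estimate ± SE; filled points passed an adjusted p of 0.05 and open points did not. The only filled points are Gzma (-1.95) and Cd2 (-1.61) in Fancc-/- marrow, and the 3 comparisons share the same wild-type arrays.

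In Fancg-/- marrow no member passed the test, and Gzma, Prf1, Klrd1 and Cd2 were below wild type on every array. Gzma averaged 5.83 ± 0.12 in Fancg-/- and 6.98 ± 0.22 in wild-type marrow, a log2 change of -1.14 ± 0.44 (adjusted p = 0.607). Cd2 averaged 7.81 ± 0.06 in Fancg-/- and 8.43 ± 0.26 in wild-type marrow (-0.63 ± 0.29, adjusted p = 0.707). Prf1 (-0.38 ± 0.16) and Klrd1 (-0.40 ± 0.46) completed the 4 of 10 members without overlap in the lower direction, against 8.61% of all genes tested. Ccl5 (0.67 ± 0.28, adjusted p = 0.656) and Cd3g (0.24 ± 0.45) were above wild type on every array, 2 of 10 members, against 8.67% of all genes. By limma 0 members were called, against 0.0504% of all genes, and 4 had an unadjusted p below 0.05, against 7% of all genes. The median change of the members was -0.10, against 0.01 over all genes. Gzma was called without double-knockout replicate 1 (-1.14 ± 0.14, adjusted p = 0.0146), an array outside this comparison that enters the spread shared by the model, in a fit that called 0.109% of all genes. It was also called when the model held the Fancg-/- and wild-type arrays only, which called 0.605% of all genes. Without Fancg-/- replicate 1, 2 or 3, which differed in the marks of sex, 0 members were called, against 0%, 0.0504% and 0.26% of all genes, and Gzma read -1.22, -1.11 and -1.11.

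In double-knockout marrow the members split. Nkg7 averaged 9.99 ± 0.17 in double-knockout and 10.51 ± 0.07 in wild-type marrow (SD, n = 3 each), a log2 change of -0.52 ± 0.30 (adjusted p = 0.320), and Cd2 averaged 7.94 ± 0.10 in double-knockout and 8.43 ± 0.26 in wild-type marrow (-0.50 ± 0.29, adjusted p = 0.325). These were the 2 of 10 members below wild type on every array, against 16.9% of all genes tested. Klrd1 had the widest mean difference (-1.30 ± 0.46, adjusted p = 0.114) and Gzmb the opposite sign (0.84 ± 0.29, adjusted p = 0.105). Gzma averaged 6.81 ± 1.25 in double-knockout marrow, so its change of -0.17 ± 0.44 was far smaller than the spread between those arrays. Prf1 (-0.34 ± 0.16) and Cd3g (-0.50 ± 0.45) overlapped wild type. By limma 0 of 10 members were called, against 5.28% of all genes, and 2 had an unadjusted p below 0.05, against 24.2% of all genes. The members' median was -0.26, against -0.01 over all genes. With Xist as a covariate, 0 members and 0% of all genes were called, and the signs of Gzma (0.61) and Cd3g (0.27) turned. Xist itself separated the double-knockout from the wild-type arrays, so this fit cannot decide what changed with the genotype.

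Double-knockout replicate 1 decided several of these values. Without it Gzma (-0.89, adjusted p = 0.00494), Prf1 (-0.53, adjusted p = 0.0294) and Klrd1 (-1.81, adjusted p = 0.0138) were called lower than wild type, in a fit that called 15.6% of all genes. Without Fancc-/- replicate 3 the calls were instead Nkg7 (-0.52, adjusted p = 0.0130) and Klrd1 (-1.30, adjusted p = 0.0329), in a fit that called 11.6% of all genes.

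Against Fancc-/- marrow, Gzma and Cd2 were higher on every double-knockout array, but no member passed the test. The marks of sex differed between these groups as well, so sex and genotype cannot be told apart here. Gzma averaged 6.81 ± 1.25 in double-knockout and 5.03 ± 0.18 in Fancc-/- marrow, a log2 change of 1.78 ± 0.44 (adjusted p = 0.0866). Cd2 averaged 7.94 ± 0.10 in double-knockout and 6.83 ± 0.75 in Fancc-/- marrow (1.11 ± 0.29, adjusted p = 0.0946). With Il2rb (0.38 ± 0.15, adjusted p = 0.198) 3 of 10 members were higher on every array, against 8.68% of all genes tested. By limma 0 members were called, against 0.0084% of all genes, and the unadjusted p was below 0.05 for these 3 and Gzmb (0.80 ± 0.29), against 19.7% of all genes. Without double-knockout replicate 1, Gzma (1.06, adjusted p = 0.00318) and Cd2 (1.17, adjusted p = 0.0443) were called, in a fit that called 10.8% of all genes.

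Against Fancg-/- marrow, Gzmb averaged 7.26 ± 0.52 in double-knockout and 6.26 ± 0.43 in Fancg-/- marrow (1.01 ± 0.29, adjusted p = 0.186), and Gzma differed by 0.98 ± 0.44 (adjusted p = 0.340). Nkg7 (-0.56 ± 0.30) and Cd3g (-0.74 ± 0.45) were lower on every double-knockout array, 2 of 10 members, against 10.5% of all genes, and Klrd1 (-0.90 ± 0.46) overlapped. By limma 0 members and 0% of all genes were called. Gzma and Gzmb had an unadjusted p below 0.05, against 14.4% of all genes.

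The interaction asks whether the double-knockout change differs from the sum of both single-knockout changes. It rests on the same double-knockout arrays, so sex and genotype cannot be told apart in it either. For Gzma the sum of the single changes was far below wild type and the double knockout was not, which gave an interaction of 2.92 ± 0.62 (adjusted p = 0.0981). Cd2 read 1.74 ± 0.40 (adjusted p = 0.110), Gzmb 0.96 ± 0.41 (adjusted p = 0.301) and Prf1 0.53 ± 0.23 (adjusted p = 0.311). These 4 had an unadjusted p below 0.05, against 14.9% of all genes, and by limma 0 members were called, against 0.0084% of all genes. Without double-knockout replicate 1 Gzma (2.20, adjusted p = 0.00154) and Cd2 (1.80, adjusted p = 0.0431) were called, in a fit that called 4.99% of all genes, and Cd2 was called without Fancc-/- replicate 3 (1.35, adjusted p = 0.0420), in a fit that called 0.882%.

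Counted array by array, 6, 6 and 8 of the 10 members were below all wild-type arrays on Fancc-/- replicates 1, 2 and 3, against 37.2%, 28.2% and 37% of all genes tested. On the Fancg-/- arrays these counts were 4, 5 and 5, against 29.6%, 29.6% and 21.9% of all genes, and on the double-knockout arrays 2, 7 and 7, against 35.7%, 34.1% and 36.6%. Members above all wild-type arrays numbered 0, 1 and 1 on the Fancc-/- arrays, 4, 3 and 2 on the Fancg-/- arrays and 3, 0 and 1 on the double-knockout arrays. Of all genes, 28.5% to 35% were above on the Fancc-/- arrays, 22.8% to 34.8% on the Fancg-/- arrays and 24% to 34.8% on the double-knockout arrays. The members did not share a single pattern over the 12 arrays. Nkg7 and Cd3g had a correlation of 0.94, Klrd1 and Cd3g of 0.82 and Gzma and Prf1 of 0.76. The CD3 chains Cd3e and Cd3g had one of 0.38 and the granzymes Gzma and Gzmb one of 0.39, and Gzmb ran against Nkg7 at -0.53. These correlations share the same 12 arrays, among them the outlying Fancc-/- replicate 3, and are given as a description.

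The genes outside the set with the profile closest to the members' mean, by Pearson's correlation over the 12 arrays, were Ldlrad3 (0.937), Gpr35 (0.935), Tmem135 (0.931), Sppl2a (0.929) and Clec4a3 (0.927). The members' own correlations with that mean, to which each contributes, ran from -0.04 for Gzmb to 0.86 for Cd3g. Cd3g, the closest member, ranked 68 among all genes tested.

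Other genes of the same cells and pathways were read from lists, beside 3.01% of all genes tested that fell and 2.27% that rose in double-knockout marrow. Of 14 genes of the T cell receptor complex and its signalling, 1 fell in Fancc-/- marrow: Cd7, an immunoglobulin-family protein of T and NK cells (-1.35 ± 0.31, adjusted p = 0.0326). Cd7 averaged 7.01 ± 0.81 in Fancc-/- and 8.36 ± 0.07 in wild-type marrow (SD, n = 3 each), and without Fancc-/- replicate 3 it still fell (-0.88, adjusted p = 0.0163). Among 9 plasmacytoid dendritic cell markers, 8 were also below wild type on every Fancc-/- array, and their part in the fall of Cd7 was not tested. The median change of the T cell receptor list in Fancc-/- marrow was -0.34, with 7 of the 14 lower on every array, against 13.1% of all genes. By limma 7, in either direction, had an unadjusted p below 0.05, against 19.8%. The list did not fall as a block, with 11 changes below 0 and 3 above. Cd8a (5.95 to 6.23, against 5.61 to 5.88 in wild-type marrow) was higher on every Fancc-/- array. So was Zap70 (8.16 to 8.32, against 7.86 to 8.02). Cd8b1, which encodes the other CD8 chain, went the opposite way to Cd8a (5.91 to 6.14 in Fancc-/-, against 6.44 to 6.79 in wild-type marrow). It was among the 7 genes of the list lower on every Fancc-/- array. By limma 0 of the 14 were called in Fancg-/- or double-knockout marrow (0 and 2 at an unadjusted p below 0.05, against 7% and 24.2% of all genes). Of 16 NK receptors and adaptors on the array, 11 were tested. Of these 11, by limma 0 were called in the single knockouts (1 in Fancc-/- and 1 in Fancg-/- marrow at an unadjusted p below 0.05, against 19.8% and 7% of all genes). Lower on every array were 2 in Fancc-/- and 1 in Fancg-/- marrow, against 13.1% and 8.61% of all genes. The NK receptor gene Ncr1 was lower in both (4.58 to 5.04 in Fancc-/- and 4.52 to 5.04 in Fancg-/-, against 5.19 to 5.67 in wild-type marrow). In double-knockout marrow Sh2d2a, an adaptor of activated T and NK cells, rose (0.63 ± 0.16, adjusted p = 0.0462), averaging 7.30 ± 0.31 in double-knockout and 6.66 ± 0.15 in wild-type marrow. Of 9 genes for T cell transcription factors and the interleukin 7 receptor, 1 fell in the double knockout: Zbtb7b, which specifies the CD4 lineage (-0.56 ± 0.14, adjusted p = 0.0474). Both calls lay close to the threshold: Sh2d2a passed in 6 of 21 alternative settings and Zbtb7b in 9 of 22. Neither passed with the replicate number as a block in limma (adjusted p = 0.0575 for Sh2d2a and 0.0637 for Zbtb7b). With Xist as a covariate 0% of all genes were called in the double knockout. That fit cannot decide on either gene, because Xist itself separated the double-knockout from the wild-type arrays.

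The factors whose motifs were marked above belong to the same list. Tbx21, which encodes T-bet, averaged 5.70 ± 0.26 in Fancc-/-, 5.65 ± 0.20 in Fancg-/-, 5.71 ± 0.29 in double-knockout and 6.27 ± 0.04 in wild-type marrow (SD, n = 3 each). Every knockout array was below every wild-type array, and the adjusted p was 0.0859 in Fancc-/-, 0.322 in Fancg-/- and 0.0712 in double-knockout marrow. Eomes averaged 6.68 ± 0.43 in Fancc-/-, 7.01 ± 0.47 in Fancg-/-, 7.14 ± 0.17 in double-knockout and 6.83 ± 0.30 in wild-type marrow. Runx3 averaged 7.82 ± 0.25 in Fancc-/-, 7.76 ± 0.14 in Fancg-/-, 8.46 ± 0.44 in double-knockout and 7.96 ± 0.24 in wild-type marrow. Eomes and Runx3 overlapped wild type in every knockout. These 3 genes were picked out after their values were seen, and none was called.

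**Figure D3:**
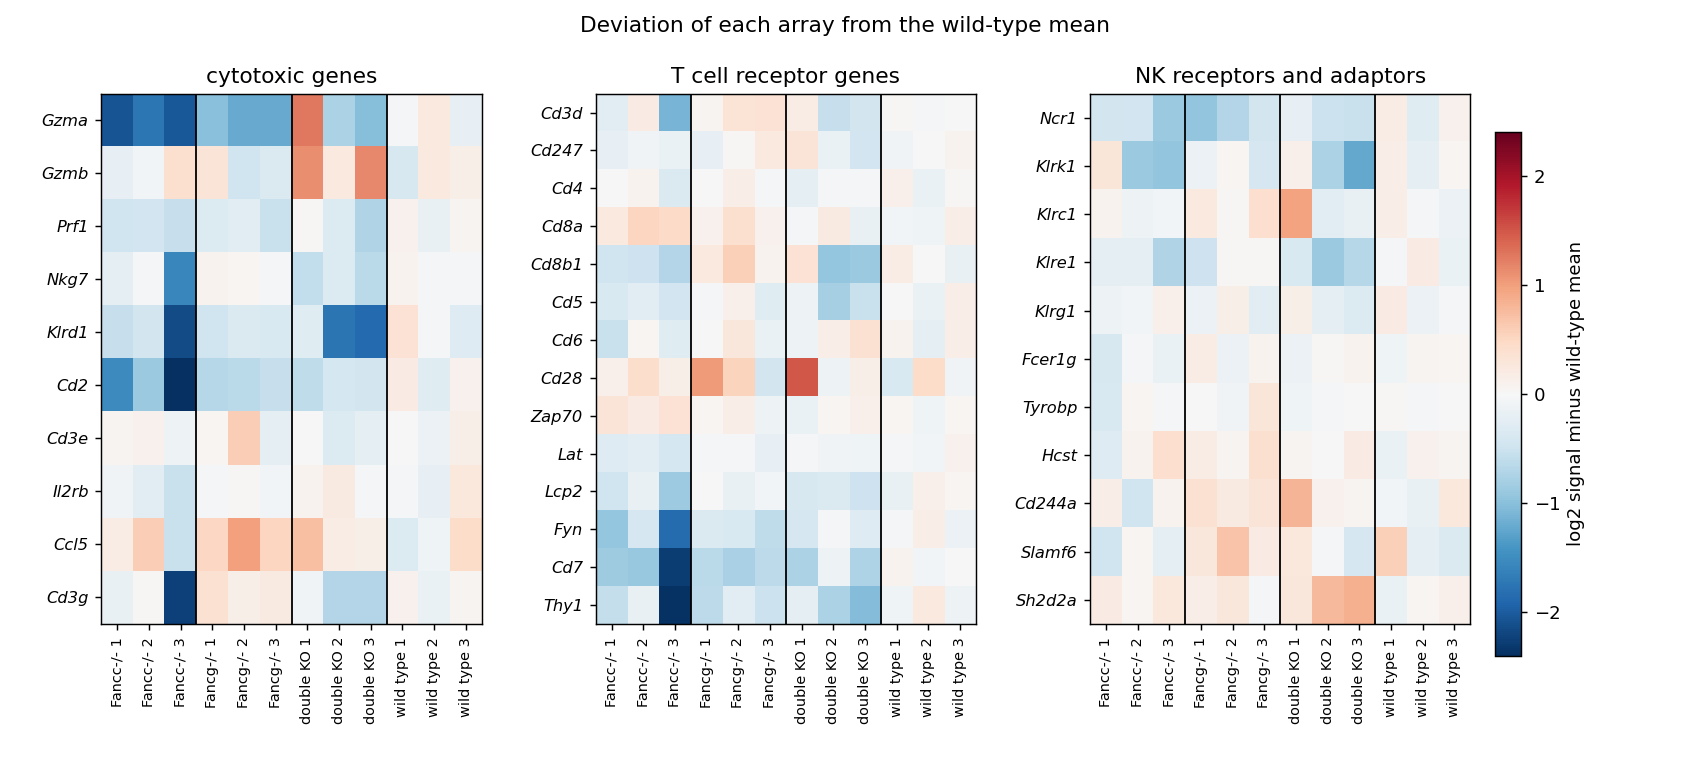
Log2 signal minus the wild-type mean (colour, blue for lower and red for higher) of the cytotoxic genes, the T cell receptor genes and the NK receptors and adaptors (rows) on each array (columns). Fancc-/- replicate 3 is the darkest blue column for Nkg7, Cd2, Cd3g, Cd7 and Thy1, while Gzma is blue on all Fancc-/- and Fancg-/- arrays and red on double-knockout replicate 1.

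Few genes of the machinery around the granules were called. Of 13 granule enzymes and exocytosis genes, by limma 0 were called in any knockout. At an unadjusted p below 0.05 there were 4 in Fancc-/-, 1 in Fancg-/- and 5 in double-knockout marrow, against 19.8%, 7% and 24.2% of all genes. The smallest p values belonged to Rab27a, which docks granules at the membrane (-0.64 ± 0.18 in the double knockout, adjusted p = 0.0600), Unc13d, which primes them for fusion (-0.39 ± 0.13 in the double knockout, adjusted p = 0.0992), and Stxbp2, a partner of syntaxin in fusion (-0.36 ± 0.11 in Fancc-/- marrow, adjusted p = 0.0839). Neutrophils and other marrow cells use these genes too. Of 9 cytokines, chemokines and death ligands, 1 fell in double-knockout marrow: the chemokine Ccl3, which macrophages also make (-2.00 ± 0.29, adjusted p = 0.0105). It averaged 9.31 ± 0.52 in double-knockout and 11.31 ± 0.31 in wild-type marrow. The median change of these 9 was -0.53 in Fancc-/-, -0.09 in Fancg-/- and -0.53 in double-knockout marrow. By limma 4, 1 and 5 of them had an unadjusted p below 0.05, against 19.8%, 7% and 24.2% of all genes. In double-knockout marrow 5 were below wild type on every array, against 16.9% of all genes, while Fasl was above it. Of 8 genes of interleukin 2 and interleukin 15 signalling, Cish, a feedback inhibitor induced by STAT5, rose in Fancc-/- marrow (0.70 ± 0.17, adjusted p = 0.0339) and in the double knockout (0.93 ± 0.17, adjusted p = 0.0174). It averaged 7.86 ± 0.08 in Fancc-/-, 7.48 ± 0.26 in Fancg-/-, 8.08 ± 0.25 in double-knockout and 7.16 ± 0.17 in wild-type marrow. All 7 erythroid markers had means above wild type in each knockout (median changes of 1.01 in Fancc-/-, 0.71 in Fancg-/- and 0.55 in double-knockout marrow). The part of erythroid cells in the Cish values was not tested.

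Markers of other marrow cells moved with the genotypes, by the same limma test. Of all genes tested, 2.36% were called lower and 2.18% higher in Fancc-/- marrow, and 0.0504% in either direction in Fancg-/- marrow. In double-knockout marrow 3.01% were called lower and 2.27% higher. Of 9 B cell markers, 8 fell in Fancc-/-, 0 in Fancg-/- and 8 in double-knockout marrow, and their summed linear signal ran between 1632 and 4075 in Fancg-/- and between 1297 and 1859 in double-knockout marrow, against the same wild-type arrays at 5842 to 8032. Of 9 plasmacytoid dendritic cell markers, 3 fell in Fancc-/-, 0 in Fancg-/- and 2 in double-knockout marrow, with sums of 924 to 2712, 2217 to 3237 and 2092 to 2969 in those groups, against 4534 to 5597 in wild-type marrow. In double-knockout marrow 5 of the 9 were below wild type on every array, against 16.9% of all genes. Siglech, Ccr9, Bst2 and Klk1 overlapped wild type there. The part of B cells in the lower values of the other markers of this list was not tested. In Fancg-/- marrow all 9 B cell markers and 5 of the 9 plasmacytoid dendritic cell markers had an unadjusted p below 0.05, against 7% of all genes. Of 8 basophil and mast cell markers, 4 fell in Fancc-/-, 0 in Fancg-/- and 1 in double-knockout marrow. Of 7 erythroid markers, 4 rose in Fancc-/-, 0 in Fancg-/- and 1 in double-knockout marrow. Of 8 platelet markers 0 were called in any knockout. Their sum was 1518, 1090 and 1450 on the Fancg-/- arrays, where Ccl5 was high, against 2962, 945 and 840 on the wild-type arrays. All Fancg-/- arrays were thus above wild-type replicates 2 and 3 and below replicate 1, and the part of platelets in the Ccl5 values was not tested. All 9 neutrophil markers on the array passed the filter, and 2 of them fell in the double knockout. Their median change there was -0.07. Below wild type on every double-knockout array were 2 of the 9, against 16.9% of all genes. These were Elane (12.76 ± 0.15, against 13.09 ± 0.03 in wild-type marrow) and Mpo (13.16 ± 0.11, against 13.47 ± 0.03). An array signal has no true 0, so no marker could be read as absent.

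**Figure D4:**
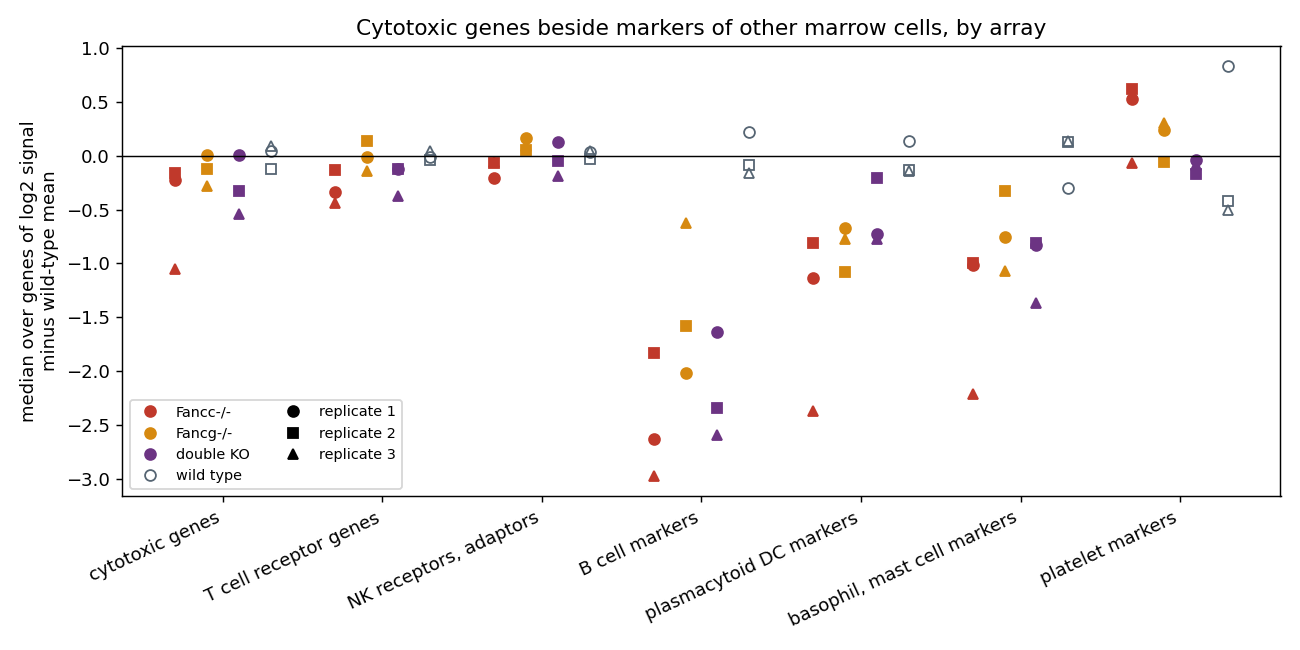
Median over the genes of a list of the log2 signal minus the wild-type mean (vertical axis) on each array, for the cytotoxic genes, 2 related lists and markers of 4 other kinds of marrow cell. The cytotoxic genes lie between -1.06 and -0.16 on the Fancc-/- arrays, against -0.12 to 0.09 on the wild-type arrays, and the B cell markers lie between -2.97 and -1.83 on the Fancc-/- arrays.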

How the data were processed

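RNA of 12 bone marrow samples was amplified from an oligo-dT primer and hybridized to Affymetrix mouse arrays, per the labels' protocols. The authors deposited RMA values from Partek on a log2 scale, 1 per probe set, per the submitters' processing notes, which give no versions; RMA fits background, quantiles and probe effects over all arrays together. Of 45101 probe sets, 64 were controls, 9160 had no gene symbol here and 932 had several; the 34945 with 1 symbol were used. A gene (18193 in all) was read on its brightest probe set by mean. Testing was limited to the 11908 genes above the array median on 3 or more arrays.

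A single limma model (version 3.58.1, R 4.3.3) over the 4 groups, with moderated variances, a variance trend and 8 residual degrees of freedom, gave 6 contrasts: the knockouts against wild type, the double knockout against Fancc-/- and against Fancg-/-, and the interaction. Tests were 2-sided with Benjamini-Hochberg adjustment over all genes tested, and a call is an adjusted p below 0.05. Changes are given ± SE and group levels as means ± SD. As a check of pairing, deviations of same-numbered Fancc-/- and wild-type arrays from their group means correlated at 0.146 to 0.159. This treats these numbers as pairs from the data and not from the labels. No other pair of groups had all 3 correlations above 0.1 (-0.37 to 0.20). Differently numbered arrays were not compared, so this check cannot decide whether the numbers pair the arrays. Arrays give no counts, so precision is limited by their number, 3 per group. In arrays simulated for the Fancc-/- comparison with 11908 genes, 82 of 100 genes changed by 1 on the log2 scale and 98 of 100 changed by 2 were recovered. The simulated errors were independent between genes, with no outlying array such as Fancc-/- replicate 3. Recovery in the real arrays can therefore be lower.

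The 10 members and the gene lists were chosen with earlier results of these data known. The text names all members, the called genes of each list (at most 4, or up to 3 of the smallest p as values) and the 5 genes most like the members' mean. The T-box and Runx motifs, and Tbx21, Eomes, Runx3, Cd3d, Ncr1 and Cd8b1 as named genes, were chosen during this work. Other settings tried were no filter and a filter at percentile 75, other uses of a gene's probe sets, other scalings, no variance trend, the compared groups alone, a replicate block, an Xist covariate, and each array left out.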

Additional observations from a re-analysis of the deposited data

How the results depend on the processing

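The limits are 3 arrays per group, an unstated sex that goes with the double knockout, and arrays that stood apart. By setting, members called in Fancc-/- against wild-type marrow numbered 1 with the stricter filter, under which Gzma was not tested (6.48% of all genes called), 1 with the compared groups alone (2.07%), and 1 to 3 when an array was left out (1.47% to 5.99%), against 2 in the reported fit (4.53%). For Fancg-/- against wild-type marrow the fit of only these groups called 1 (0.605% of all genes) and leaving out an array gave 0 to 1 (0% to 0.26%). For the double knockout the fit of only these groups called 1 (5.39%) and leaving out an array gave 0 to 3 (0.134% to 15.6%). Leaving out an array gave 0 to 2 calls for the double knockout against Fancc-/- marrow (0.0084% to 10.8%) and 0 to 2 for the interaction (0% to 4.99%). In the double knockout, Gzma ran from -0.89 to 0.26 when an array was left out, and the cause was not tested. With Xist as a covariate Gzma changed sign (0.61) and Cd3g read 0.27. Xist itself separated the double-knockout from the wild-type arrays, so that fit cannot decide these changes. Gzma in Fancc-/- marrow passed the threshold in 16 of 21 alternatives and Cd2 in 21 of 22. Among the other called genes, Cd7 passed in 15 of 22, Cish in 14 of 22 in Fancc-/- and 16 of 22 in double-knockout marrow, Ccl3 in 19 of 22, Zbtb7b in 9 of 22 and Sh2d2a in 6 of 21.

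With the replicate number as a block, 2 members were called in Fancc-/- marrow (Gzma, adjusted p = 0.0293, and Cd2, adjusted p = 0.0172; 4.43% of all genes) and 0 in the other comparisons. The block changed no call of a member, whereas Zbtb7b (adjusted p = 0.0637) and Sh2d2a (adjusted p = 0.0575) lost theirs in the double knockout. Deviations of same-numbered double-knockout and wild-type arrays from their group means correlated at -0.14 to -0.01. Whether the numbers pair the arrays could not be decided.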
